A study of Mus musculus with 10 samples.

Results

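The comparison is between tumours given MK1775 in the form labelled Lipo and tumours given it in the form labelled Free: 2 Lipo-MK1775 libraries and 2 Free-MK1775 libraries, 4 of the 10 in the series. They were chosen by their treatment label. Every library of the 10 is RNA of a tumour grown under the skin from 4T1, a line of mouse breast carcinoma, and taken on day 14. The other 6 are 2 of the negative control (PBS in the design text), 2 of Free-MK1775+NLG919 and 2 of Lipo-MK1775+NLG, where the design text gives the second drug as NLG919. The labels give neither doses, nor the make-up of the Lipo form, nor whether the 2 libraries of a group are from different mice, so each test measures only the spread between these libraries. A Lipo vehicle without MK1775 is not among the groups, so an effect of the carrier and one of the delivered drug cannot be told apart.

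MK1775 blocks WEE1, the kinase that puts an inhibitory phosphate on CDK1 and so holds cells back from mitosis while DNA is unrepaired. The title of the series links WEE1 targeting to ferroptosis, a death by iron-driven oxidation of membrane lipids that GPX4 counters. Carriers of lipid type alter where a drug goes, and phagocytes are among the cells that take up particles. NLG919 interferes with IDO1, an enzyme route from tryptophan to kynurenine by which tumours restrain T cells.

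The libraries compared differed first in their mitochondrial RNA. Transcripts of the mitochondrial genome made up 64.1% and 56.0% of summed FPKM in the Lipo-MK1775 libraries and 4.82% and 3.44% in the Free-MK1775 libraries. One library outside the comparison, Free-MK1775+NLG919 replicate 2, was also high at 47.3%, and the other 5 lay between 2.88% and 4.79%. All levels below are therefore scaled FPKM: the FPKM of named nuclear genes, rescaled to a sum of 1e+06 in each library. Even so, the same 3 libraries had more 18S ribosomal RNA, a larger share of ribosomal protein genes and fewer nuclear reads: relative to Lipo-MK1775 replicate 1, nuclear depth was 1.42 in replicate 2 and 4.15 and 4.20 in Free-MK1775. Nuclear genes that match mitochondrial transcripts in sequence were kept. They took 4.52% and 3.28% of the nuclear sum in Lipo-MK1775 and 0.06% and 0.04% in Free-MK1775.

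**Figure D1:**
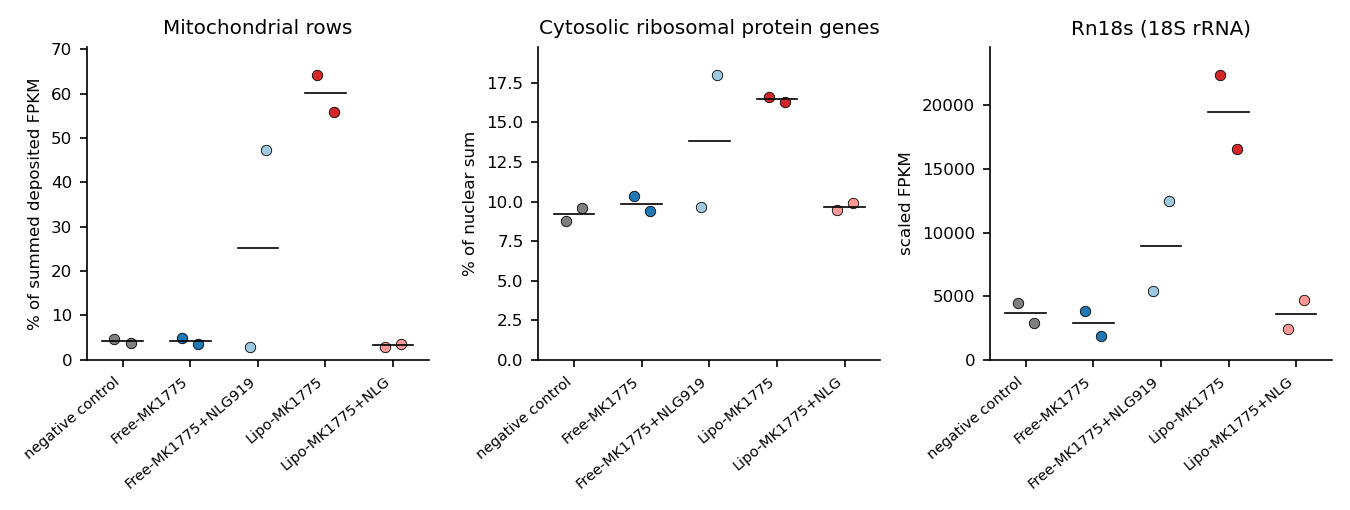
Mitochondrial share of summed FPKM, ribosomal protein share of the nuclear sum, and Rn18s level, by group; each point is a library and each line the mean of 2. Both Lipo-MK1775 libraries and 1 Free-MK1775+NLG919 library stand above the other 7 in all panels.

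Mitochondrially encoded genes carried this shift as a class. Of 37 listed, 33 were higher in both Lipo-MK1775 libraries than in both Free-MK1775 libraries, among them all 13 that encode respiratory chain proteins, both ribosomal RNAs and 18 of 22 transfer RNAs. The count includes genes near 0 throughout. In Lipo-MK1775 the transfer RNA mt-Tq was at 0.0005 and 0.0003 deposited FPKM, and mt-Ts1 at 0.0028 and 0.0041. The protein gene mt-Nd4 was at 1.15 and 0.41 in Free-MK1775 against 2.18 and 3.05. The deposited FPKM of mt-Co1, a catalytic subunit of cytochrome c oxidase, was 5138 and 3986 in Free-MK1775 and 133642 and 103126 in Lipo-MK1775. For mt-Rnr1, the small mitochondrial ribosomal RNA, it was 351 and 172 against 5426 and 4233. Of 28 listed nuclear respiratory chain genes, 6 were higher and 17 lower in both Lipo-MK1775 libraries than in both Free-MK1775 libraries. Over all genes tested these shares were 8.41% and 64.8%. The log2 difference of 23 of the 28 was above the median of all genes. Ndufb7, a complex I subunit outside that list, was 213 and 165 scaled FPKM in Free-MK1775 and 450.4 and 427 in Lipo-MK1775. Atp5b, the catalytic subunit of ATP synthase, was 1164 and 1499 against 682 and 690.1.

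Among 13847 nuclear genes tested, 42 were called higher in Lipo-MK1775 (0.303% of genes tested) and 235 lower (1.7%), by limma's moderated test at an adjusted p under 0.05. No called gene had overlapping libraries. Predicted genes, pseudogenes and Rik clones made up 19 of the 42 and 15 of the 235. Of the 42, 4 matched a mitochondrial transcript in sequence. Most calls sat close to the threshold, with a median adjusted p of 0.0436. The lean towards lower values was general: the median log2 difference of all genes was -0.67, and 64.8% of genes were lower without overlap against 8.41% higher. The size of that lean depends on the scale used, and its cause was not tested. Median-of-ratios scaling sets the typical gene to no change by design, so its median of -0.07 does not bear on the cause. It called 52 higher and 63 lower. A relative difference below is a log2 difference minus the median of all genes. The counts also depended on single libraries: they were lowest without either Free-MK1775 library (1 higher and 0 lower, with 338 to 350 higher and 1997 to 3144 lower at an unadjusted p under 0.05 in limma) and highest without either Free-MK1775+NLG919 library (475 to 476 higher and 5476 to 5481 lower).

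A second property moved with the comparison. Genes with a leading transcript of at most 600 bases had a relative difference of 0.84 (944 genes), and those over 6000 bases one of -0.38 (1449 genes), with a steady fall between. Free-MK1775+NLG919 replicate 2 had the same slope, its median log2 difference from the Free-MK1775 mean running from 0.41 to -1.13 over these classes, whereas in Lipo-MK1775+NLG replicate 1 it ran from 0.00 to 0.15. Genes called higher had a median length of 642 bases, genes called lower one of 3362, and all genes tested one of 2696. Since both Lipo-MK1775 libraries carry the high mitochondrial share, form and share cannot be told apart: with the share as a covariate 30 genes were called higher and 2 lower, of which 1 in each direction was among the calls above. Beside this, Free-MK1775+NLG919 replicate 2 lay on the Lipo-MK1775 side of the midpoint for 22 of the 42 genes called higher and 121 of the 235 called lower.

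**Figure D2:**
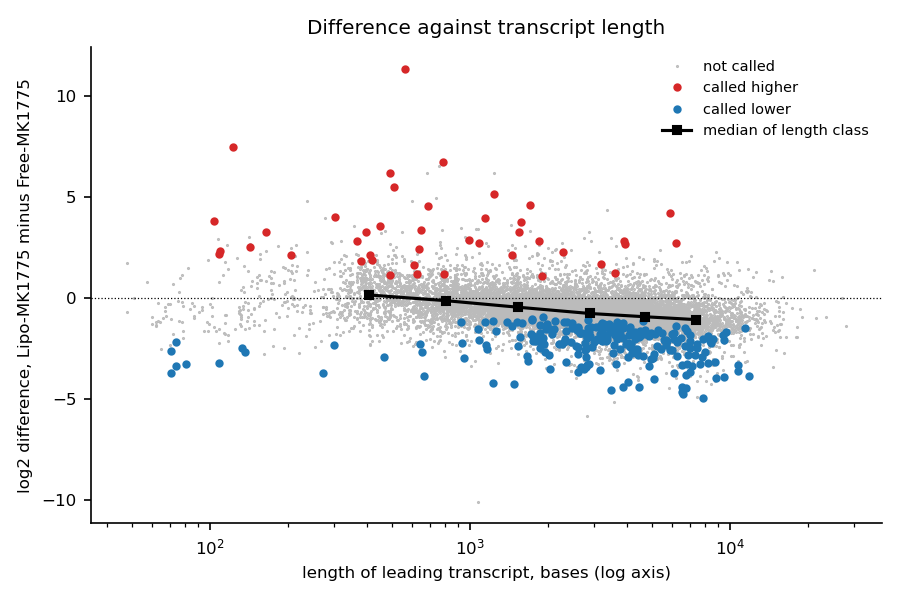
Log2 difference, Lipo-MK1775 minus Free-MK1775, against length of the leading transcript (log axis), 1 point per gene tested; squares are medians of 6 length classes. The class medians fall from 0.16 at up to 600 bases to -1.06 above 6000 bases.

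Among the named rises were Rnase2a, Chil3 and Mmp12, genes known from myeloid cells, in which Free-MK1775+NLG919 replicate 2 was not high (2.13, 0.843 and 63.8 scaled FPKM). Rnase2a, an eosinophil-associated ribonuclease that attracts leukocytes (chr14:51492719-51493569, GRCm39), was at 3.79 and 3.78 scaled FPKM in Free-MK1775 and 165 and 78.6 in Lipo-MK1775. The other 6 libraries lay between 0.364 and 12.1, so both Lipo-MK1775 libraries stood above all the rest. The log2 difference was 4.58 ± 0.81 (SE; limma adjusted p = 0.044). Chil3, the chitinase-like protein Ym1 of alternatively activated macrophages (chr3:106054870-106074880, GRCm39), was at 5.36 and 1.59 against 42.9 and 35.1, a log2 difference of 3.29 ± 0.63 (adjusted p = 0.045), and no other library passed 7.62.

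Mmp12, the macrophage elastase, was at 64.5 and 89.5 scaled FPKM in Free-MK1775 and at 173 and 187 in Lipo-MK1775, a log2 rise of 1.24 ± 0.23 (limma adjusted p = 0.044). Both control libraries, at 140.3 and 171, were also above Free-MK1775, and Lipo-MK1775 lay just above them. Ccl8, a chemokine that draws monocytes and eosinophils, was at 443 and 499.5 against 2244 and 1901, with the other 6 libraries between 75.9 and 678. The libraries did not overlap, but the difference of 2.13 ± 0.55 did not pass in the fit of all libraries (limma adjusted p = 0.063). Retnla, which encodes the macrophage product Fizz1 and was chosen after its values were seen, was at 2.77 and 1.27 against 203 and 32.5 (log2 difference 4.82 ± 1.20, limma adjusted p = 0.061). Its 2 Lipo-MK1775 libraries differed widely, yet both exceeded the 9.98 of the highest other library.

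Adding the unnamed assembled transcripts of each locus left these 5 genes nearly where they were. Rnase2a was at 4.60, Retnla at 4.81, Chil3 at 3.30, Ccl8 at 2.18 and Mmp12 at 1.28. The 5 passed there (limma adjusted p between 0.0226 and 0.0311), in a fit that called 263 genes higher and 2947 lower. As reported, 42 and 235 were called. That fit uses the same libraries, so passing in it is no separate evidence. Other settings ended calls. With the mitochondrial share as a covariate Rnase2a was at 2.97, Chil3 at 4.51 and Mmp12 at 1.44, and none of the 3 passed (limma adjusted p = 0.48, 0.19 and 0.19). By median-of-ratios scaling and with the length trend removed Chil3 and Mmp12 passed, while Rnase2a did not (limma adjusted p = 0.0503 and 0.059). Cxcl5, a neutrophil-attracting CXCR2 ligand, behaved otherwise. Its named transcript rose from 0.74 and 1.45 to 16.8 and 43.8 scaled FPKM (log2 difference 3.77 ± 0.52, limma adjusted p = 0.028), but with unnamed transcripts of the locus included the levels were 66.6 and 125 in Free-MK1775 and 15.7 and 67.9 in Lipo-MK1775, and the difference turned to -1.44 (limma adjusted p = 0.084). No direction for the Cxcl5 locus as a whole can be read from the named transcript.

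The stretches before the starts of Retnla and Chil3 are shown because both are known targets of the IL-4 and IL-13 factor STAT6 and were high in the same 2 libraries. They are the 250 bases upstream of the RefSeq start on build GRCm38.p6, read on the gene's strand, with the STAT6-type palindrome (TTC, 4 bases of any kind, GAA) in capitals.
Retnla, chr16:48842359-48842608, plus strand: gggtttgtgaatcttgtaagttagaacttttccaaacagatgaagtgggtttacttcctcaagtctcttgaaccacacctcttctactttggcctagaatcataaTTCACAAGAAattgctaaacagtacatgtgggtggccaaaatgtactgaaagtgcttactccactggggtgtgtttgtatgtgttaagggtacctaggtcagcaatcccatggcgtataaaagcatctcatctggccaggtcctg
Chil3, chr3:106167565-106167814, minus strand: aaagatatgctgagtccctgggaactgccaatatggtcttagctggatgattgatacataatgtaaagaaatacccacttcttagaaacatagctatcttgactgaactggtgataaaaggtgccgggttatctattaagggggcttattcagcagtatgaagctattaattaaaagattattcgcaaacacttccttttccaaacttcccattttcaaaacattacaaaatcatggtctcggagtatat
The motif, which reads alike on both strands, occurs 1 time before Retnla, beginning 145 bases before the start. It is not in these 250 bases of Chil3, nor in those of Rnase2a, Ccl8 or either listed start of Mmp12. The form with 3 bases between TTC and GAA, not capitalised, occurs 1 time before Chil3 and in none of the other windows. Of all 32851 RefSeq promoter windows of that length, 5.85% hold the first form and 7.02% the second. A match is a description of letters and says nothing of binding.

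**Figure D3:**
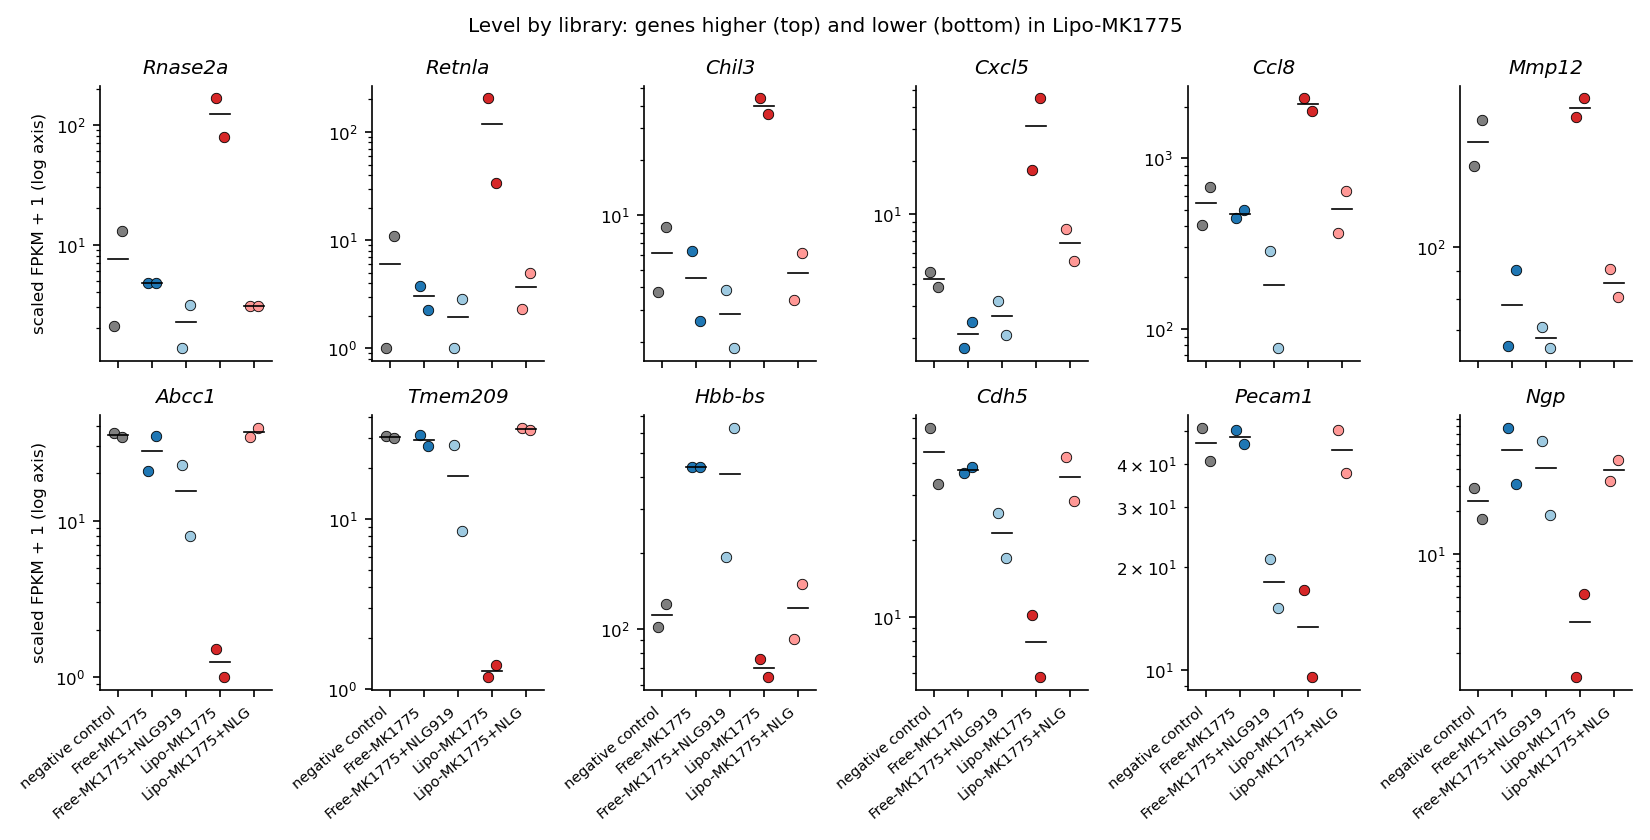
Levels of 12 genes by group, in scaled FPKM plus 1 on log axes whose ranges differ between panels; each point is a library, each line the mean of 2. In the upper row the Lipo-MK1775 libraries lie above both Free-MK1775 libraries, and in the lower row below them.

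Other named rises were short or ribosome-linked RNAs, and Free-MK1775+NLG919 replicate 2 was high in several. They do not stand for their classes: the 66 tested microRNA genes had a relative difference of -0.47, with 2 called higher and 8 lower (0.303% and 1.7% of all genes). Rn18s, the 18S ribosomal RNA, was at 3864 and 1879.9 scaled FPKM in Free-MK1775 and at 22359 and 16585 in Lipo-MK1775, and at 12448 in that library. Mir6236 was at 4.81 and 0 against 501 and 374, with 155 in that library, and Mir703 at 227 and 205 against 1018 and 1179 (log2 difference 2.34 ± 0.23, limma adjusted p = 0.014). These are reads over annotated hairpins in long-RNA libraries, not levels of mature microRNAs. The annotated mature forms, from RefSeq on GRCm38.p6 with the seed at bases 2 to 8 in capitals, share no seed.
mmu-miR-6236: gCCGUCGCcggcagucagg
mmu-miR-703: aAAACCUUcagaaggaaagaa

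Small noncoding RNAs of the nucleolus, spliceosome and RNase complexes were the list with the highest relative difference, 2.81 over 7 tested genes. All 66 tested genes annotated as small nucleolar RNAs, by contrast, had a relative difference of -0.09. Of these, 10 were higher and 31 lower without overlap (8.41% and 64.8% of all genes). In each direction 2 were called (0.303% of all genes higher and 1.7% lower). Of the 7, 5 were higher without overlap (8.41% of all genes) and 1 was called higher (0.303% of all genes). The called gene was Scarna2, a Cajal body RNA, at 1.63 and 0.993 scaled FPKM against 10.4 and 7.85. Snord13, a nucleolar RNA that guides 18S ribosomal RNA acetylation, is not among the 7 and was also called higher (limma adjusted p = 0.048). Its value was 0 in both Free-MK1775 libraries and 11.7 and 14.3 in Lipo-MK1775, which is about 4 and 8 reads. Rmrp, the RNA of RNase MRP, was at 3.23 and 1.04 against 57.7 and 34.7, and at 37.7 in Free-MK1775+NLG919 replicate 2 (limma adjusted p = 0.055). For the whole list the relative difference of that library was 2.93.

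The named rises end with 4 genes of other kinds. Lars2, the mitochondrial leucyl-tRNA synthetase, was at 113 and 67.0 scaled FPKM against 1169 and 341 (log2 difference 2.84 ± 0.57). Ndufb7 rose by 1.22 ± 0.23 and Pygo2, a Wnt cofactor that binds methylated histone H3, by 1.68 ± 0.30 from 12.3 and 15.8 to 52.4 and 42.0 (limma adjusted p between 0.044 and 0.049 for these genes). Free-MK1775+NLG919 replicate 2 was also high in Lars2, at 257, and Ndufb7, at 382, but not in Pygo2, at 10.6. Hcfc1r1, a regulator of the transcriptional coactivator HCF-1, was at 43.2 and 18.2 against 316 and 278. There Free-MK1775 was the low group, since the other 6 libraries lay between 56.1 and 263, and with unnamed transcripts added the difference of 3.35 shrank to 0.61 and did not pass (limma adjusted p = 0.14).

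Cytosolic ribosomal protein genes moved together. None of 33 was called in the fit of all libraries, but 29 were higher without overlap (8.41% of all genes) and 1 lower (64.8% of all genes). The relative difference was 1.24, or 0.73 with the length trend removed and -0.13 with the mitochondrial share as a covariate. Rplp0, of the ribosomal stalk, was at 1385 and 1268 scaled FPKM against 2307 and 2234, and Rps14 of the small subunit at 1872 and 2359 against 3771 and 4063 (limma adjusted p = 0.051 and 0.057). The relative difference of Free-MK1775+NLG919 replicate 2 was 1.29. Mitochondrial ribosomal protein genes had a smaller shift of 0.51 (0.23 with the length trend removed), and nuclear respiratory chain genes one of 0.34 that came to 0.00 once the length trend of each library was removed. Mrpl20 stood out among them at 18.7 and 15.6 against 114 and 106, but with unnamed transcripts added its difference of 2.62 was 0.13.

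Falls were most often in long transcripts. The 12 largest were Ubr2, Edem3, Larp4, Tmem209, Abcc1, Prex1, Prdx3, Ngp, Dhrs9, Prrc2c, Nipbl and Map1b, with log2 differences from -4.92 to -3.86. Dhrs9 was listed at 0 in both Lipo-MK1775 libraries, so its fitted value depends on the constant of 1 added before taking logs. Abcc1, the drug efflux pump MRP1 (chr16:14179422-14293601, GRCm39), was at 19.8 and 33.7 scaled FPKM in Free-MK1775 and at 0.513 and 0 in Lipo-MK1775, while 5 of the other 6 libraries lay between 21.7 and 38.2 and Free-MK1775+NLG919 replicate 2 was at 7.03. Its log2 difference was -4.45 ± 0.51 (limma adjusted p = 0.014). Tmem209, a nuclear envelope protein, was at 30.5 and 26.2 against 0.171 and 0.382 (log2 difference -4.53 ± 0.50, limma adjusted p = 0.014).

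These sizes rested on which transcripts carry the gene's name. With unnamed assembled transcripts of the locus added, Abcc1 was at 18.03 and 30.9 against 8.76 and 8.33, a difference of -1.37 that still passed (limma adjusted p = 0.043), and Tmem209 was at -1.66. Prdx3, a mitochondrial peroxidase, went from -4.26 to -0.25 and Prex1, a Rac exchange factor, from -4.40 to -0.82, and neither passed. The other 10 of the 12 did, in a fit of the same libraries that called 2947 genes lower. Since the 12 were chosen as called falls in these libraries, that count is no separate evidence. Over all 235 genes called lower, the median went from -2.08 to -1.60, and 60 moved by over 1 log2 unit.

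Of the remaining falls, Ubr2 (a ubiquitin ligase of the N-degron pathway) went to -1.94 there, Edem3 (which trims mannose from misfolded glycoproteins) to -2.04, Larp4 (which binds poly(A) tails) to -1.92, Dhrs9 (a retinol dehydrogenase family member) to -2.47, Prrc2c (of stress granules) to -2.64, Nipbl (the cohesin loader) to -1.81 and Map1b (a microtubule binder) to -1.79. Ngp, a granule protein of immature neutrophils, kept its size: 77.03 and 30.0 scaled FPKM in Free-MK1775 against 0.360 and 4.27, a log2 difference of -4.20 named and -4.11 with the locus. In bulk tumours, fewer cells of a type and less RNA per cell cannot be told apart, here and for every cell type below.

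Endothelial genes held the most calls of any list, 4 of 16 lower (1.7% of all genes). Cdh5, the VE-cadherin of vessel junctions, was at 35.4 and 37.6 scaled FPKM against 9.18 and 4.79 (log2 difference -2.29 ± 0.41). Pecam1, the junction protein CD31, was at 49.2 and 44.6 against 16.1 and 8.55. Esam, another junction protein, was at 28.2 and 19.8 against 6.38 and 6.75, and Tie1, a receptor tyrosine kinase of vessels, at 12.3 and 12.2 against 3.45 and 2.15 (limma adjusted p between 0.0436 and 0.0445 for the 4). Both Lipo-MK1775 libraries were below all other 8 in Cdh5, Esam and Tie1. For Pecam1 replicate 1, at 16.1, lay above the 14.2 of Free-MK1775+NLG919 replicate 2. None of the 4 passed by median-of-ratios scaling (limma adjusted p between 0.066 and 0.084) or with the length trend removed (0.067 to 0.131). Across the list 12 of 16 were lower without overlap, against 64.8% of all genes, and the relative difference was -0.59, or -0.39 with the length trend removed. The relative difference of Free-MK1775+NLG919 replicate 2 on this list was 0.13.

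**Figure D4:**
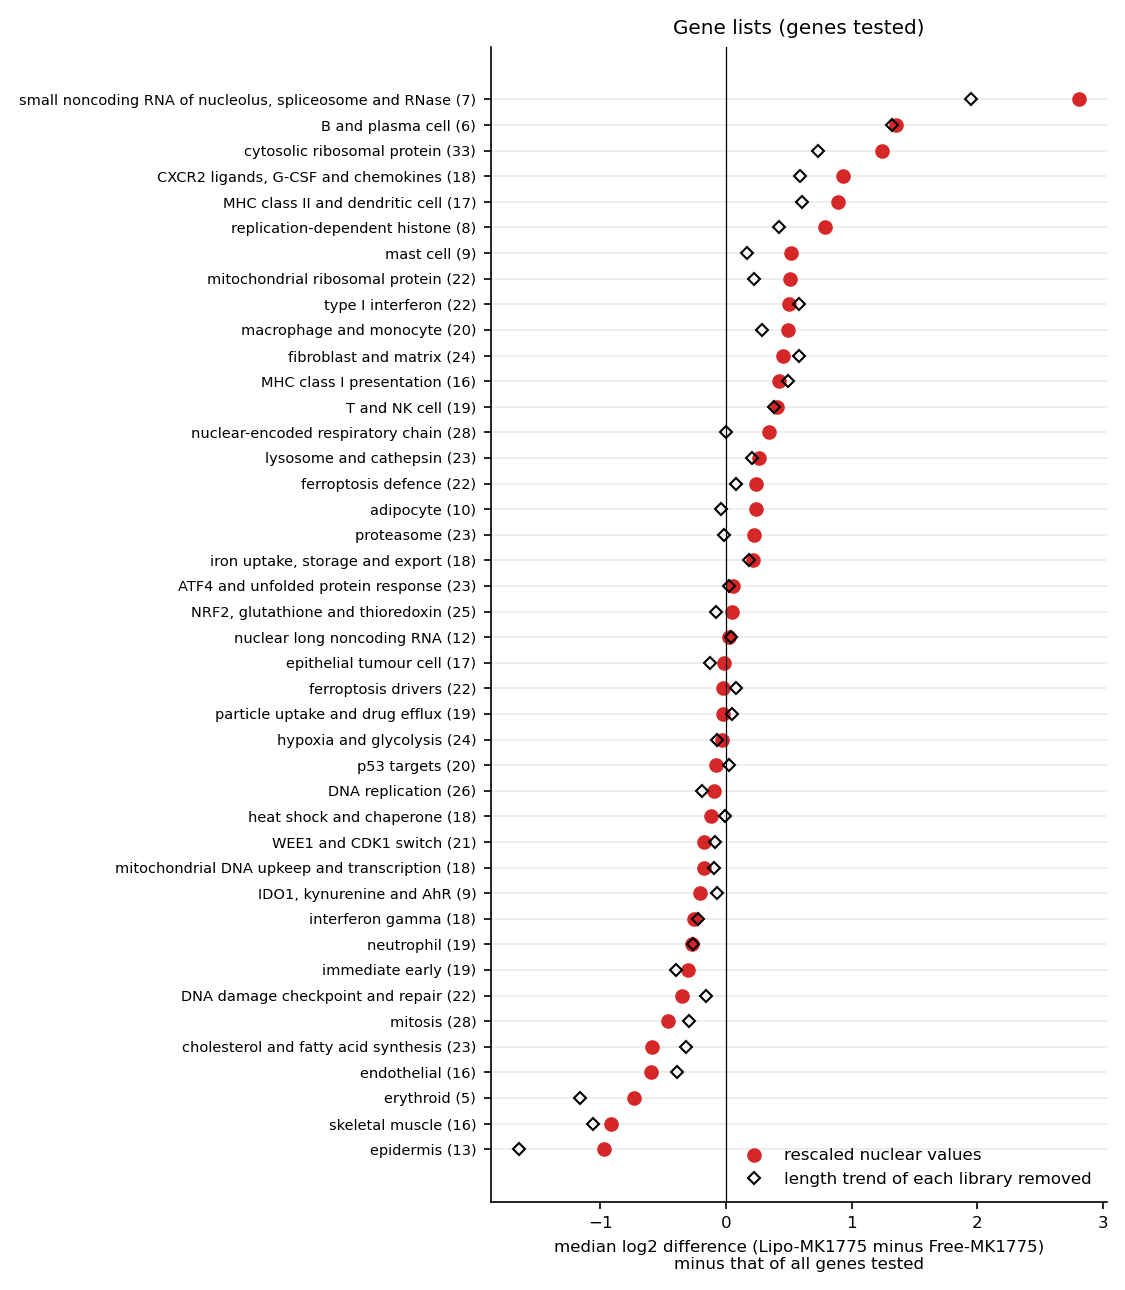
Median log2 difference of each gene list minus that of all genes tested, with the number of genes tested in parentheses; circles are the rescaled nuclear values and diamonds the values with each library's length trend removed. Small noncoding RNA genes are highest at 2.81 and epidermis genes lowest at -0.97.

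Globin was also lower. Hbb-bs, an adult beta globin of red cells, was at 437 and 439.9 scaled FPKM in Free-MK1775 and at 75.0 and 63.3 in Lipo-MK1775 (log2 difference -2.65 ± 0.49, limma adjusted p = 0.044). Free-MK1775 was the high side here, since the controls were at 101 and 125, although Free-MK1775+NLG919 replicate 2 was higher still at 629. Hba-a1 was at 201 and 173 against 107 and 61.5 and did not pass (adjusted p = 0.12). Reads can be split between near-identical globin copies, so values of single copies are uncertain.

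Genes of the CDK1 switch, the axis that MK1775 acts on, followed the general lean with little beyond it. None of 21 was called, 19 were lower without overlap (64.8% of all genes), and the relative difference was -0.17. Wee1 itself was at 26.3 and 33.8 scaled FPKM against 14.7 and 14.3 (log2 difference -0.99, limma adjusted p = 0.09), and Pkmyt1, the related inhibitory kinase, at 21.8 and 27.2 against 11.1 and 8.41. Cdk1 was at 56.3 and 50.9 against 39.0 and 33.2, Ccnb1, its cyclin, at 60.3 and 88.7 against 45.0 and 23.6, and Cdk2 at 52.9 and 50.7 against 20.8 and 18.4. The gap of Cdk2 exceeded the spread within either pair but did not pass (limma adjusted p = 0.057). By median-of-ratios scaling Wee1 differed by -0.33 and Cdk1 by 0.12, a change of sign. With unnamed transcripts added Wee1 (-1.02), Cdk1 (-0.96) and Cdk2 (-1.31) passed (limma adjusted p between 0.0295 and 0.0497), in a fit that called 2947 genes lower.

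Mitosis genes were lower relative to all genes (-0.46, or -0.29 with the length trend removed), with none of 28 called. The proliferation antigen Mki67, a long transcript, was at 42.3 and 61.2 scaled FPKM against 6.02 and 15.1 (log2 difference -2.29, limma adjusted p = 0.17), and with unnamed transcripts added the difference of -1.49 passed (adjusted p = 0.037). DNA replication genes were near the median (-0.09). In the DNA damage checkpoint and repair list 1 of 22 was called lower (1.7% of all genes): Trp53bp1, which directs double-strand break repair, at 23.1 and 24.0 against 8.33 and 5.29. The p53 targets had a relative difference of -0.08 with none of 20 called, and Cdkn1a, the CDK inhibitor p21, was at 72.8 and 91.0 against 64.7 and 80.1, overlapping, as did Bax, at 169 and 187 against 178 and 195.

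The ferroptosis lists showed no common direction beyond that of all genes. Defence genes had a relative difference of 0.24 (1 of 22 called lower, against 1.7% of all genes) and driver genes one of -0.02 (none of 22 called). Gpx4, which reduces lipid peroxides, was at 911 and 913 scaled FPKM in Free-MK1775 and at 656 and 737 in Lipo-MK1775, a log2 difference of -0.39 ± 0.19 that did not pass (limma adjusted p = 0.17) and was 0.30 by median-of-ratios scaling. Nfe2l2, the factor NRF2 that drives antioxidant genes, was the called defence gene, at 183 and 186 against 90.9 and 65.1 (limma adjusted p = 0.05 after rounding). Aifm2, which regenerates ubiquinol, overlapped at 20.7 and 30.5 against 23.3 and 20.1. Slc7a11, the cystine importer, was low throughout, at 0.501 and 0.363 against 2.02 and 0.967, and its difference of 0.77 turned to -0.98 with unnamed transcripts added; neither passed.

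On the driver side, Acsl4, which loads polyunsaturated fatty acids into phospholipids, was at 96.3 and 80.2 scaled FPKM against 33.8 and 25.2, without overlap (limma adjusted p = 0.094). Ptgs2, often used as a ferroptosis marker, was at 94.8 and 117 against 73.7 and 65.1, and Chac1, a glutathione-degrading enzyme, at 32.6 and 44.5 against 27.6 and 33.7. None of 18 iron genes was called. The ferritin light chain Ftl1 was at 5604 and 6246 against 7373 and 8669.8, and the heavy chain Fth1 overlapped at 7085 and 6644 against 5274 and 7099. Tfrc, the transferrin receptor, overlapped at 67.0 and 113 against 68.8 and 56.1, and Hmox1, the heme-degrading oxygenase, was at 356 and 497 against 228 and 324.

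Several stress and growth genes were called lower, though nearer to the median of all genes. In the unfolded protein response list 2 of 23 were called lower (1.7% of all genes). They were Herpud1, of endoplasmic reticulum degradation, at 115 and 108 scaled FPKM against 38.4 and 45.0, and Dnajb9, a chaperone of the same compartment, at 94.2 and 83.5 against 29.6 and 32.7. Hspa5, the chaperone BiP, was at 1817 and 1867 against 1429 and 1128 and did not pass (limma adjusted p = 0.21). The cytosolic chaperone Hsp90aa1 fell from 1602 and 1421 to 696 and 553, the growth-promoting transcription factor Myc from 164 and 197 to 84.0 and 74.0, and the hypoxia-responsive peptide Adm from 94.9 and 101 to 45.2 and 39.7. Called lower were 2 of 18 heat shock, 1 of 19 immediate early and 1 of 24 hypoxia genes (1.7% of all genes). Higher without overlap were 3, 0 and 0 of them (8.41% of all genes). Relative to all genes the lists differed by 0.06, -0.11, -0.30 and -0.03 for unfolded protein response, heat shock, immediate early and hypoxia. By median-of-ratios scaling none of the 5 called genes named here passed (limma adjusted p between 0.060 and 0.354).

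Sterol and fatty acid synthesis genes were lower relative to all genes, by -0.59 (-0.32 with the length trend removed), with 21 of 23 lower without overlap (64.8% of all genes) and 1 called lower (1.7% of all genes). Srebf1, the factor that drives lipid synthesis, was at 52.9 and 62.8 scaled FPKM against 15.0 and 12.2 (log2 difference -2.01, limma adjusted p = 0.05), and Fdps, a farnesyl diphosphate synthase, overlapped at 131 and 154 against 159 and 146. The particle uptake and drug efflux list had a relative difference of -0.02, with 3 of 19 higher and 12 lower without overlap (8.41% and 64.8% of all genes). Its summed level was 2650.5 and 2543.7 scaled FPKM against 3327 and 5321. Called lower were 2 of the 19 (1.7% of all genes), Abcc1 above and Cav1, the coat protein of caveolae, at 109 and 76.7 against 29.7 and 25.4.

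Macrophage and type I interferon genes split in both directions. Of 20 macrophage and monocyte genes 6 were higher and 9 lower without overlap, and of 22 type I interferon genes 5 were higher and 6 lower. Among all genes, 8.41% were higher and 64.8% lower without overlap. The list medians were -0.18 and -0.17, above the -0.67 of all genes. In the fit of 8 libraries on the reported scale, 2 macrophage genes were called higher and 5 lower, and 3 and 3 of the interferon genes. That fit called 473 of all 13847 genes higher and 5483 lower. With median-of-ratios scaling and the Free-MK1775+NLG919 pair left out, a fit chosen after seeing the data that called 1109 genes higher (8.01%) and 850 lower (6.14%), 6 of 20 macrophage and monocyte genes were higher and none lower, and 6 of 22 type I interferon genes were higher and none lower. In the fit of all libraries none of these was called. Apoe, a lipid carrier made by macrophages, was at 1043 and 703.3 scaled FPKM against 1807 and 3972, and Arg1, the arginine-degrading enzyme of alternatively activated macrophages, at 382 and 412 against 1865 and 697 (limma adjusted p = 0.056 and 0.087). Spp1, which encodes osteopontin and was the most abundant of the list, went the other way, at 8073.5 and 4349.9 against 2392 and 2376 (log2 difference -1.31, limma adjusted p = 0.078). With unnamed transcripts added, Free-MK1775+NLG919 replicate 2 was at 1419 for Apoe, above the 943 and 631.5 of Free-MK1775. For Arg1 it was at 361, between the 346 and 370 of Free-MK1775. Summed macrophage markers did not separate the groups, at 4691 and 2981 against 2872 and 3079.

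Isg15, an interferon-induced ubiquitin-like protein, was at 129 and 146 scaled FPKM against 248 and 248, and Irf7, a factor of type I interferon induction, at 61.9 and 67.3 against 135 and 167 (limma adjusted p = 0.067 and 0.061). Free-MK1775+NLG919 replicate 2 was also high in Irf7, at 120, but not in Isg15, at 130. Oas2, a sensor of double-stranded RNA, was lower without overlap, at 5.08 and 6.75 against 2.14 and 1.37 (log2 difference -1.33, limma adjusted p = 0.084), or -0.31 with unnamed transcripts added. Genes induced by interferon gamma had a relative difference of -0.25, with none of 18 called, and Gbp2, one of the guanylate-binding proteins, was at 348 and 372 against 119 and 112. The relative differences were 0.50 for type I interferon, 0.42 for MHC class I and 0.89 for MHC class II and dendritic cell genes. Single members varied: B2m, the light chain of MHC class I, was at 10446 and 6963 against 4977 and 4836, whereas Cd74 and H2-Aa of class II overlapped, at 3376 and 1684 against 2002 and 1843 and at 889 and 527 against 947 and 773.

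Lymphocyte genes were at low levels. Jchain, of secreted antibodies, was at 7.74 and 7.98 scaled FPKM against 48.3 and 16.6 (limma adjusted p = 0.21), and 3 of 6 tested B and plasma cell genes were higher without overlap (8.41% of all genes). The most abundant of the 6, Xbp1, a secretory-cell transcription factor that many cell types express, was lower, at 264 and 243 against 87.8 and 80.1 (log2 difference -1.58, limma adjusted p = 0.09). Cd8a was at 6.80 and 3.41 against 3.39 and 2.22, and the cytotoxic protease Gzmb at 32.6 and 20.6 against 21.8 and 21.0. The chemokine Cxcl9, which draws T cells, ranged from 0.125 to 9.51 within the 4 libraries, and its difference of 1.09 turned to -0.70 with unnamed transcripts added. Ido1, the target pathway of NLG919, was at 10.9 and 10.95 against 6.60 and 3.33 (limma adjusted p = 0.28), and Cd274, the checkpoint ligand PD-L1, at 37.1 and 38.1 against 23.2 and 29.4. In the IDO1, kynurenine and aryl hydrocarbon receptor list 1 of 9 was called lower (1.7% of all genes). It was Cyp1b1, a target of that receptor, at 81.2 and 63.6 against 17.9 and 23.5.

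Of 19 neutrophil genes 0 were higher and 11 lower without overlap (8.41% and 64.8% of all genes). The relative difference was -0.27, and 1 gene, Ngp above, was called lower (1.7% of all genes). The calgranulins S100a8 and S100a9 overlapped, at 322 and 552 against 246 and 787 and at 453 and 958 against 421 and 1514. Padi4, which citrullinates histones in neutrophils, was at 75.4 and 243 against 33.6 and 15.4 (log2 difference -2.52, limma adjusted p = 0.051). With unnamed transcripts added its difference was -0.87 (limma adjusted p = 0.032). Cxcl1, another CXCR2 ligand, was at 141 and 182 against 53.8 and 95.2. Of the matrix list 1 of 24 was called lower (1.7% of all genes), Mmp3, a stromelysin, from 369.6 and 488 to 78.8 and 155. Fn1, fibronectin, was at 1378 and 1514 against 253 and 405 (limma adjusted p = 0.057), although the list as a whole had a relative difference of 0.45.

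Tumour cell markers showed small differences. The keratins of 4T1 cells, Krt18 and Krt8, were at 989 and 1248 against 794 and 1213 and at 612 and 866 against 368 and 552 scaled FPKM, Vim overlapped at 1280.3 and 2164 against 3041 and 1986 (log2 difference 0.56, or -0.23 with unnamed transcripts added), and Epcam was near 0 in all 4 (at most 4.03). Skin and muscle varied within Free-MK1775 itself: Krt10, of epidermis, was at 7.16 and 147 against 1.99 and 3.31, and Acta1, of skeletal muscle, at 24.3 and 333 against 11.3 and 38.8. The nuclear long noncoding RNA list had a relative difference of 0.02, with 1 of 12 higher and 5 lower without overlap (8.41% and 64.8% of all genes). Of its members, Malat1 was at 31.6 and 42.6 against 11.8 and 21.6 and Neat1 at 156 and 129.8 against 15.2 and 47.7, neither of which passed (limma adjusted p = 0.14 and 0.085).

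Whether the difference between the forms changed with the second drug was tested as an interaction, Lipo minus Free without NLG minus the same with it. It was called for 2179 genes (15.7%), 185 above 0 and 1994 below, and the median over all genes was -1.11. It contains the difference between the forms reported above, from the same 4 libraries, so it is no separate evidence for genes called there. The Free-MK1775+NLG919 pair enters this test, and its replicates stood far apart (mitochondrial share 2.88% and 47.3%). Cdh5 had an interaction of -3.02, Abcc1 of -5.89 and Rnase2a of 4.01; Chil3, Mmp12, Ccl8 and Retnla did not pass (limma adjusted p = 0.068, 0.072, 0.68 and 0.11). Under median-of-ratios scaling 35 genes were called in the interaction, and with the mitochondrial share as a covariate limma called 0 (1249 at an unadjusted p under 0.05).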

How the data were processed

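RNA of 10 subcutaneous 4T1 tumours (5 groups of 2) was prepared with an RNeasy kit and NEBNext Ultra RNA libraries, per the labels' protocols. FastQC, Trim Galore, HISAT2, StringTie and build GRCm39 are named in the submitters' processing notes, with versions and the strand setting not given in the sources used here. The authors deposited FPKM per transcript, with no read counts, so a count test could not be run and depth is known only in relative terms, from what 1 read is worth.

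FPKM was summed per gene symbol, the 46 rows of the mitochondrial genome were removed and the rest was rescaled to a common sum of 1e+06. Transcripts without a symbol (21051 of 161762) were left out. Genes at a scaled FPKM of 2 or more in at least 2 libraries were tested: 13847 of 52287. Differences are on the log2(value + 1) scale, with a pseudocount of 1, which understates changes of low genes. The main test was limma 3.58.1 (R 4.3.3) with a variance trend, fitted on all 10 libraries with 5 residual degrees of freedom, two-sided, with Benjamini-Hochberg adjustment over all genes tested. Of these, 1802 share a locus with another symbol, and overlapping or antisense genes cannot be told apart. Tables were made with Python 3.11.15, pandas 2.3.3 and numpy 2.4.6, and likeness to mitochondrial transcripts was searched with blastn 2.17.0. A match had at least 90% identity over at least 100 bases. The fitting code was tested on simulated data.

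Named genes were the 12 largest rises and 12 largest falls among called genes without overlap and at a scaled FPKM of 10 or more in the higher group (predicted genes and pseudogenes are counted, not named), up to 4 members of a described list with the smallest p and up to 2 with the highest level, and a list of followed genes; Retnla was added after its values were seen. The comparison, its gene lists and its tests were chosen with earlier results of these data known. The labels do not say whether replicate numbers pair the libraries. Deviations of Free-MK1775 and Lipo-MK1775 replicates correlated at 0.0665, and those of other pairs of groups at -0.2033 to 0.0441. Low correlations do not exclude a pairing. Alternatives covered scaling, pseudocount, filter, unnamed transcripts, libraries fitted, variance model, mitochondrial share, replicate block and each library left out.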

Additional observations from a re-analysis of the deposited data

Results flagged for a closer look

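Mitochondrial transcripts, which the nuclear comparison leaves out, took 64.1% and 56.0% of summed FPKM in the Lipo-MK1775 libraries, above both control libraries. Transcripts without a symbol took 19.6% and 18.4% of nuclear FPKM there, also above the controls.

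The difference between the forms differed with and without NLG by a limma test of the interaction for 2179 genes. All the values that follow are interaction log2 values, for which 1 library (Free-MK1775+NLG919 replicate 2, at 47.3% mitochondrial share) enters the group subtracted. The median over all genes was -1.11, and values not far below it follow the general lean. Only named transcripts are used. With unnamed transcripts added, the difference between the forms without NLG shrank to 0.13 for Mrpl20, 0.61 for Hcfc1r1 and -0.25 for Prdx3, while Rnase2a stayed at 4.60. Above 0 were noncoding and ribosome-linked RNAs, with Mir6236 at 10.79, Rmrp at 5.20, Snord13 at 5.18, Rn18s at 4.11, Scarna2 at 3.10 and Mir703 at 2.98. Genes linked to mitochondria among them were Mrpl20 at 4.27, Lars2 at 3.89 and Ndufb7 at 1.87. Rnase2a was at 4.01, Hcfc1r1 at 3.73, Apoe at 2.33 and Irf7 at 1.72.

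Below 0 were the genes with the largest falls: Ubr2 at -7.03, Prdx3 at -6.79, Dhrs9 at -6.59, Edem3 at -6.48, Abcc1 at -5.89, Map1b at -5.82, Nipbl at -5.74, Tmem209 at -5.69, Prex1 at -5.34, Larp4 at -4.84, Prrc2c at -4.63 and Ngp at -4.37. Endothelial genes were at -3.18 for Pecam1, -3.02 for Cdh5, -2.44 for Tie1 and -1.94 for Esam. Cell cycle and DNA repair genes were at -5.55 for Mki67, -2.10 for Pkmyt1, -1.89 for Cdk2, -1.84 for Wee1 and -1.79 for Trp53bp1.

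Stress and metabolic genes were at -2.78 for Srebf1, -2.29 for Tfrc, -2.23 for Herpud1, -2.07 for Dnajb9, -1.95 for Myc, -1.92 for Chac1, -1.71 for Adm, -1.56 for Atp5b, -1.53 for Nfe2l2 and -1.43 for Hsp90aa1. Stromal, immune and other genes were at -4.32 for Neat1, -3.58 for Padi4, -3.23 for Mmp3, -3.21 for Fn1, -2.69 for Cyp1b1, -2.59 for Cxcl1 and -2.29 for Cav1.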

How the results depend on the processing

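Counts of called genes moved widely (42 higher, 235 lower and 2179 in the interaction as reported), and the cause was not tested. They became 104, 5955 and 5851 with FPKM as deposited, 66, 63 and 18 with quantile normalization, 22, 28 and 21 with no filter, 263, 2947 and 5927 with unnamed transcripts added, 25, 94 and 691 with no variance trend, and 369, 4393 and 6 with sample quality weights. Median-of-ratios scaling gave 63 lower and 35 in the interaction. A pseudocount of 0.1 gave 21 higher, and a filter at a scaled FPKM of 10 gave 388 lower. The replicate block gave 3 higher, 36 lower and 35 in the interaction. The fit of the 4 libraries compared gave 274 higher and 2297 lower, and that of 8 libraries 473 and 5483. With the mitochondrial share as a covariate 2 were lower and limma called 0 in the interaction (1249 at an unadjusted p under 0.05). Among alternatives chosen after seeing the data, removing genes like mitochondrial transcripts gave 156 lower and 882 in the interaction, removing the length trend 57 and 20, and median-of-ratios scaling with 8 libraries 1109 higher and 850 lower. Leaving out 1 library gave 1 to 476 higher, 0 to 5481 lower and 0 to 8123 in the interaction; the lone sample of a group is then assumed to vary like the others, and where limma called 0 lower, 3144 and 1997 had an unadjusted p under 0.05.

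Of 99 genes in the text, 55 kept both their direction and their side of the threshold under median-of-ratios scaling, 57 with the length trend removed and 30 with the mitochondrial share as a covariate. All log2 differences that changed sign are given next; of these, Cxcl5 had been called as reported and Cd274 was called under the alternative. With unnamed transcripts added they were Cxcl5 at -1.44, Cxcl9 at -0.70, Slc7a11 at -0.98 and Vim at -0.23. With FPKM as deposited they were Bax at -0.56, Fdps at -0.53, Ftl1 at -0.20, H2-Aa at -0.31, S100a8 at -0.57, S100a9 at -0.35 and Vim at -0.07. With median-of-ratios scaling, on 10 or 8 libraries alike, they were Aifm2 at 0.46, Cd274 at 0.16, Cd74 at 0.38, Cdk1 at 0.12, Cdkn1a at 0.51, Chac1 at 0.37, Fth1 at 0.53, Gpx4 at 0.30, Gzmb at 0.40, Hmox1 at 0.07, Hspa5 at 0.16, Krt18 at 0.52, Krt8 at 0.00, Ptgs2 at 0.09 and Tfrc at 0.21. Quantile normalization gave Aifm2 at 0.48, Cd274 at 0.14, Cd8a at 0.01, Cdk1 at 0.06, Cdkn1a at 0.34, Chac1 at 0.33, Ftl1 at -0.32, Gzmb at 0.42 and Tfrc at 0.05. Removing the length trend gave Aifm2 at 0.59, Cd274 at 0.33, Cd8a at 0.15, Cdk1 at 0.34, Cdkn1a at 0.38, Chac1 at 0.15, Gzmb at 0.12, Hspa5 at 0.31, Krt18 at 0.21, Ptgs2 at 0.31, S100a8 at -0.08 and Tfrc at 0.46. The mitochondrial share as a covariate gave Acsl4 at 0.84, Acta1 at 8.37, Aifm2 at 0.73, Ccnb1 at 0.52, Cd274 at 5.62, Cd74 at 4.33, Cd8a at 2.49, Cdk1 at 0.28, Cdkn1a at 0.56, Chac1 at 0.25, Fn1 at 0.21, Fth1 at 0.12, Gbp2 at 1.43, Gzmb at 1.90, Hspa5 at 0.58, Ido1 at 1.67, Krt8 at 0.38, Malat1 at 0.95, Mki67 at 3.34, Mrpl20 at -1.16, Neat1 at 1.20, Pkmyt1 at 0.24, Ptgs2 at 0.77, S100a8 at -1.13, S100a9 at -0.39, Tfrc at 0.48, Vim at -0.85, Wee1 at 0.12 and Xbp1 at 0.74. Over fits without 1 library, those that changed sign ranged as follows: Aifm2 at -0.48 to 0.06, Bax at 0.00 to 0.14, Cd74 at -0.81 to 0.19, Cxcl9 at -0.12 to 2.30, Epcam at -2.07 to 0.26, Fdps at -0.02 to 0.22, Fth1 at -0.38 to 0.05, Gzmb at -0.59 to 0.05, H2-Aa at -0.06 to 0.70, Krt18 at -0.48 to 0.13, S100a8 at -0.77 to 0.90, S100a9 at -0.65 to 1.20.

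Nuclear depth was lower in the Lipo-MK1775 libraries (1.0 and 1.42 against 4.15 and 4.20 in Free-MK1775), which limits the precision of low genes.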
